A study of Mus musculus with 2 samples.

Results

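Sperm formation genes were described by the 5-hydroxymethylcytosine (5hmC) peaks in and around them in foetal male germ cells, long before most of these genes are used. The 35 genes were grouped by function into nuclear packing, tail, calcium channel, acrosome and fusion, metabolism and kinases, with the transcription factor gene Crem standing outside these 6 groups. Each gene was given a window, its mm10 gene span with 10 kb on each side, and every peak overlapping the window by at least 1 bp was taken, a shared peak being counted once. The windows of the 35 genes held 101 of the 108395 peaks in the list. The rule takes the members by name and uses no measured value, though they were proposed with earlier results of these data in view. All 35 were found among the 21775 protein-coding genes used for comparison.

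The material was wild-type (WT) mouse prospermatogonia at embryonic day 17.5. The captured library was made from 50 ng of DNA out of a pool of 30000 frozen germ cells from several embryos. Its 5hmC was tagged with a glucose carrying biotin and pulled down with streptavidin. The library of the DNA before capture, from the same batch 1, was not used here because the analysed values come from the peak list of the captured library. With 1 captured library and no replicate, no test across samples was possible, and the depth is unknown. Peaks on DNA do not report expression, so the labelled cell type could not be checked against marker levels.

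Sperm formation, or spermiogenesis, is the reshaping of round haploid spermatids into sperm after meiosis. Transition proteins and then protamines replace histones and compact the nucleus, a tail is built around the axoneme, and the acrosome forms from Golgi vesicles over the nucleus. Much of the programme is switched on by the spermatid form of CREM and rests on isoforms used in few other cells, such as the glycolytic enzyme genes Gapdhs, Pgk2 and Ldhc. Prospermatogonia are arrested germ cells that precede spermatogonia, and they gain DNA methylation across much of the genome at this stage. 5hmC is made from 5-methylcytosine by TET enzymes.

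A peak lay in the window of 31 of 35 members, which is 88.6% (exact Clopper-Pearson 95% interval 73.3 to 96.8), against 78.7% of all protein-coding genes. A peak lay in the own span of 23 members, 65.7% (47.8 to 80.9), against 61.6% of all protein-coding genes. Both shares of members were near those of genes at large, whose values lie inside the members' intervals. Strong peaks, those in the top 10% of all peaks with a fold enrichment of at least 5.43, lay in the windows of 5 members, 14.3% (4.81 to 30.3), against 13.7% of all protein-coding genes. The fold enrichment of a peak is the authors' own value from their peak caller, and the intervals cover counting error only. Taken over the union of the windows, 5.01% of the members' bases lay under peaks, against 4.69% for all protein-coding genes. That order depended on the flank, since with 5 kb on each side the values were 4.29% for members and 4.72% for all protein-coding genes.

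Of the 101 peaks, 54 overlapped the span of a member, 31 lay in another gene and 16 lay outside genes. Those in a member's span had a median fold of 3.58, those in another gene 3.30 and those outside genes 3.42, against 3.35 over all peaks in the list. Another protein-coding gene reached into the window of 26 members (74.3%), against 61.9% of all protein-coding genes, so a flank peak need not belong to the member it is counted for. The median width of the 101 peaks was 850 bp, against 636 bp over all peaks, which include those far from genes. By place the median was 819 bp in a member's span, 973 bp in another gene and 728 bp outside genes. The greater width was thus not particular to peaks on the members themselves.

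**Figure D1:**
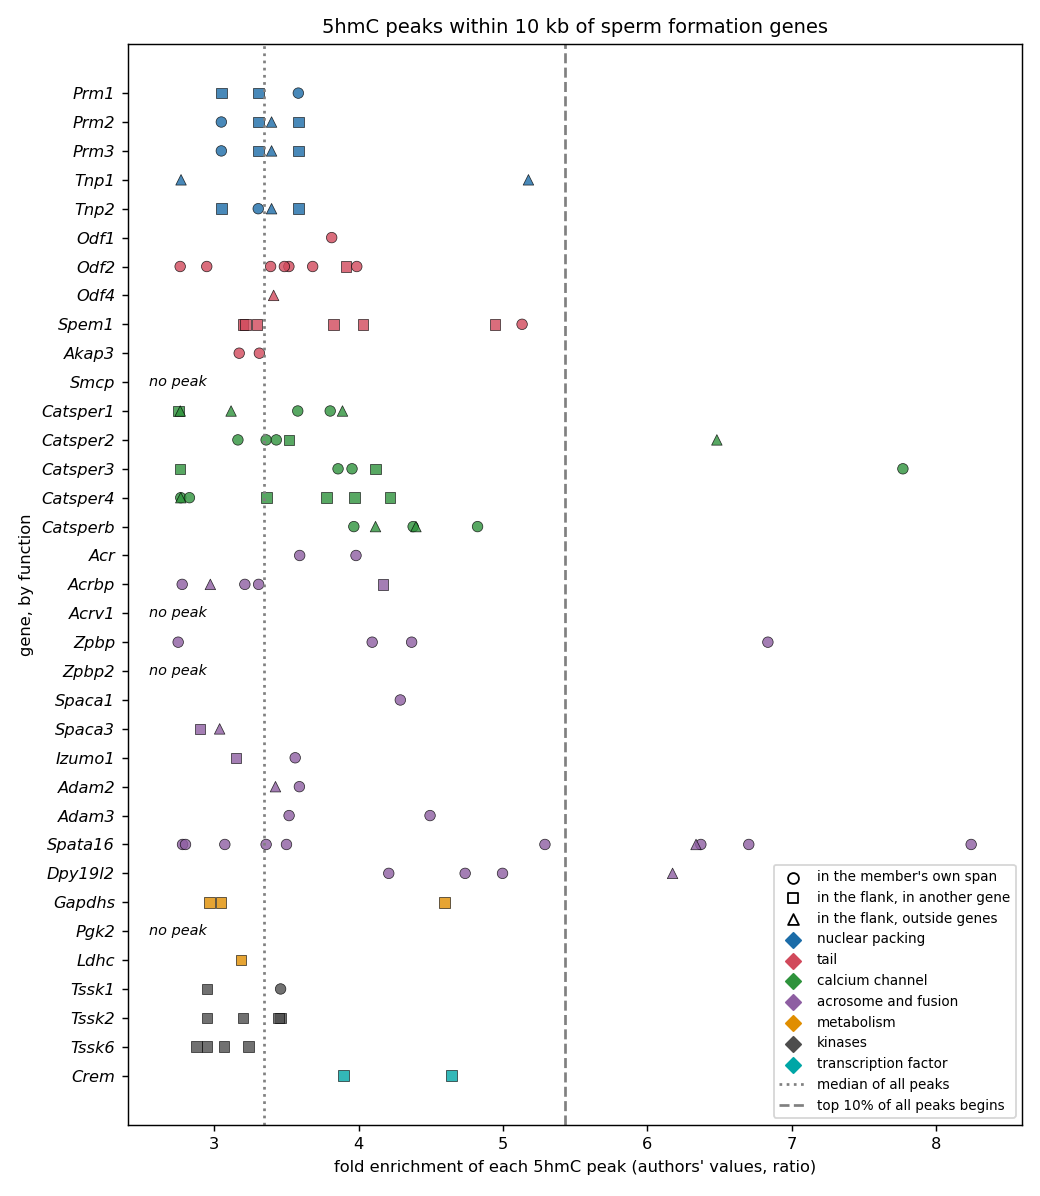
Fold enrichment (horizontal axis, ratio, the authors' values) of every peak in the windows of the 35 genes (rows, coloured by function). Circles are peaks in the gene's own span, squares flank peaks in another gene and triangles flank peaks outside genes; the dotted line is the median of all peaks, 3.35, and the dashed line the start of the top 10%, 5.43. Peaks past the dashed line occur only at Catsper2, Catsper3, Zpbp, Spata16 and Dpy19l2.

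The nuclear packing genes had most of their own length under weak peaks, with Tnp1 as the exception. Prm1 and Prm2 encode the protamines that replace most histones in mouse sperm, Tnp1 and Tnp2 encode the transition proteins that come before them, and Prm3 is a small gene between Prm2 and Tnp2. Prm1, Prm2, Prm3 and Tnp2 lie in the same orientation, on the minus strand, within 8.89 kb of chromosome 16. Their windows held 4 peaks, of which the last was in the windows of Prm2, Prm3 and Tnp2 only. A peak of 309 bp (chr16:10796434-10796742, fold 3.58) lay wholly inside Prm1 and covered 62.8% of its span. A peak of 1795 bp (chr16:10790485-10792279, fold 3.05) covered 100% of the spans of both Prm2 and Prm3. A peak of 1035 bp (chr16:10787630-10788664, fold 3.30) covered 100% of Tnp2. The last, of 1864 bp and fold 3.40, lay outside genes past Socs1, the gene of a cytokine signalling inhibitor, which itself had no peak. All 4 were weak calls, with −log10 q values from 1.42 to 2.17.

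**Figure D2:**
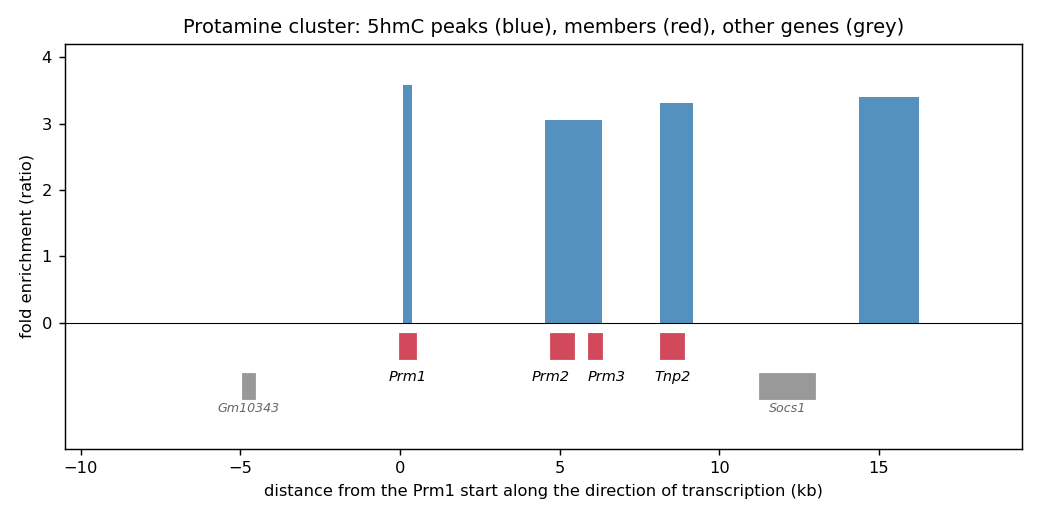
Map of the protamine cluster: peaks (blue, height is fold enrichment as a ratio) above the 4 member genes (red) and other genes (grey), by distance in kb from the start of Prm1 along the direction of transcription. The peaks over Prm1, over Prm2 with Prm3, and over Tnp2 sit on the genes themselves, with folds from 3.05 to 3.58, and the peak farthest from Prm1 lies past Socs1.

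Tnp1, alone on chromosome 1, had no peak in its span of 826 bp. A peak of fold 2.77 lay 206 bp past its 3′ end and was among the weakest in the list, with a −log10 q of 1.02. A stronger peak of fold 5.18 and −log10 q 5.15 lay 6947 bp downstream, outside genes. Tnp1 thus had no peak on the gene, where the 4 genes of the cluster each had one.

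Gene starts under a peak were found at 4 members. The RefSeq promoter table of GRCm38.p6, the build of mm10, gave starts for 29 of the 35 genes and none for Odf1, Catsper1, Acr, Adam2, Adam3 and Crem. The starts of Prm2, Prm3, Tnp2 and Catsper3 were covered, 13.8% of 29 (exact interval 3.89 to 31.7), against 3.67% of 17491 protein-coding genes. Covered starts were counted after these values had been seen. These 4 starts lie at 2 loci, and the peak over Prm2 and Prm3 is the same. The interval counts each start as independent, so it is too narrow for such neighbours. With the protamine cluster left out, 1 of 25 members had a covered start. Prm1 was close to this group, with 80 bp between its start and its peak, and Tssk1 likewise with 69 bp. The median distance from a start to the nearest peak was 3538 bp for the 29 members and 5749 bp for all genes. That order also rested on the protamine cluster. With the cluster left out, the middle of the 25 members was Tssk6 at 6410 bp, farther than the median of all genes.

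The promoters, 250 bases before to 50 after the start, are shown for the 4 covered starts and for Prm1 and Tnp1, whose starts were not covered, so that their CG dinucleotides, the main sites of cytosine methylation, can be compared. CG is in capitals and the strand is that of the gene. The windows are chr16:10792056-10792355 for Prm2, chr16:10790865-10791164 for Prm3, chr16:10788606-10788905 for Tnp2, chr13:55784329-55784628 for Catsper3, chr16:10796774-10797073 for Prm1 and chr1:73015850-73016149 for Tnp1; Catsper3 is on the plus strand and the others on the minus strand.
Prm2: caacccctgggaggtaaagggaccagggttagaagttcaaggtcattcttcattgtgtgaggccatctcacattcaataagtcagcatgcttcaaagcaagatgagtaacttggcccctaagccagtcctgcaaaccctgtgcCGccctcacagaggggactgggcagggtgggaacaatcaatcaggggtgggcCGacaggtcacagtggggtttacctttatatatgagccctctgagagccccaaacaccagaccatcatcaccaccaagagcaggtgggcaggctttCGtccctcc
Prm3: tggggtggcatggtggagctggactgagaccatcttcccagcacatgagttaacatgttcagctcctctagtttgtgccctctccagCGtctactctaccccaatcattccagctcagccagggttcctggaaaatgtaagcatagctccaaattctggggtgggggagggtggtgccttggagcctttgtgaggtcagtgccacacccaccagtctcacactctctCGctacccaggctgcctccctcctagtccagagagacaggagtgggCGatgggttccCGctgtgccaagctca
Tnp2: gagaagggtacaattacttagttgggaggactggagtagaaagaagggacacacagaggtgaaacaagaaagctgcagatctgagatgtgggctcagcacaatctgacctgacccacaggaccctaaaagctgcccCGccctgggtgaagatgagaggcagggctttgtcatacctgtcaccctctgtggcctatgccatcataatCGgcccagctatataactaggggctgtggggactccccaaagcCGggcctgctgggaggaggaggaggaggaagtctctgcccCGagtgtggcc
Catsper3: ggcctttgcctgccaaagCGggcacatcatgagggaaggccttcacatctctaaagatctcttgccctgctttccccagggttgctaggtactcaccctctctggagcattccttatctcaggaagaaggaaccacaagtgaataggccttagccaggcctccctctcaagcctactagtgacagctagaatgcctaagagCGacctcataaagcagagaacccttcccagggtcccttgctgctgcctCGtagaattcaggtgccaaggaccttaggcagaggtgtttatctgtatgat
Prm1: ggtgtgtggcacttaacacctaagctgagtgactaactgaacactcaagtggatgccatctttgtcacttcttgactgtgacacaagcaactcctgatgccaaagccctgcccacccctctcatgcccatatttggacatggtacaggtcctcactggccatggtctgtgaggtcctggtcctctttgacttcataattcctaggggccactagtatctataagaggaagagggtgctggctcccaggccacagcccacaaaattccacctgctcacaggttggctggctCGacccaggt
Tnp1: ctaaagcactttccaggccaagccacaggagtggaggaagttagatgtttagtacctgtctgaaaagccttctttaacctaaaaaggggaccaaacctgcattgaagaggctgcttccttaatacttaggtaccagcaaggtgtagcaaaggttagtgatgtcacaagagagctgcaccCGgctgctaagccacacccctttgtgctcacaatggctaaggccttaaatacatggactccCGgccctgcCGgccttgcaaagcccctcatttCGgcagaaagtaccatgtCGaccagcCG

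The covered promoters held few CG dinucleotides. Prm2 and Catsper3 had 3 each, and Prm3 and Tnp2 had 4 each. Among the starts that were not covered, Prm1 had 1 and Tnp1 had 6. The peak covered all 300 bases of the promoters of Catsper3 and Prm3, 224 bases of that of Prm2 and 59 of that of Tnp2. Over all protein-coding genes, promoters whose start lay under a peak had a median of 6 CG, against 14 in those whose start did not. The 36 member starts had a median of 6 and ranged from 0 at Smcp and Akap3 to 43 at an Odf2 start.

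Starts under a peak were most frequent in promoters with 4 to 9 CG, at 11.3% of 4111 starts. They made up 2.30% of starts with 0 to 3 CG, 2.24% with 10 to 19 and 0.170% with 20 or more. Among the members, 25 of 36 starts fell in the lower classes of up to 9 CG, and all 4 covered starts were there. This is a description of 1 library, in which starts of the same gene share sequence.

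**Figure D3:**
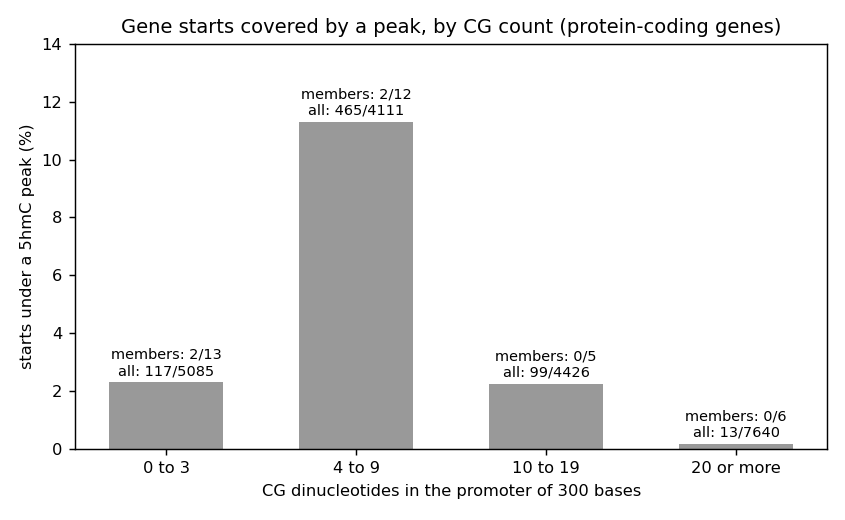
Percent of gene starts under a 5hmC peak (vertical axis) by the number of CG dinucleotides in the 300 bases of the promoter, for 21262 starts of protein-coding genes; the labels give covered starts of all starts for the members and for all genes. The class of 4 to 9 CG stands at 11.3%, and the member starts under a peak fall in the 2 lower classes.

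CREM binds the cAMP response element, so this element was searched in the promoters on both strands. Only exact matches were counted, so a promoter without a match may still hold a variant of the element. The full element TGACGTCA was in 1 of 36 member promoters, that of Izumo1, and in 2.23% of all promoters. Its stretch in Izumo1 (chr7:45621695-45621742, plus strand), with the element in capitals beginning 96 bases before the start, reads as follows.
Izumo1: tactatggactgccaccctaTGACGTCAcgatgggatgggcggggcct

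The core TGACG, which is contained in the full element, was in 14 of the 36 member promoters, against 23.6% of all promoters. By gene, 11 of 29 members (37.9%) had it, against 26.2% of all genes. None of the 4 covered promoters held the core. The TATA box core TATAAA, also searched on both strands, was in 1 member promoter and in 12.6% of all promoters. The match was at position -31 of Prm2, on the strand opposite to the gene, so the printed strand does not read TATAAA there. A match describes letters in this window and says nothing of binding.

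Among the tail genes the windows of Spem1 and Odf2 were densely covered and that of Smcp was empty. Spem1, whose protein is needed for spermatids to shed cytoplasm and keep a straight head, had a peak of fold 5.13 and −log10 q 4.90 that covered 57.5% of its span of 1295 bp. With 6 more peaks in the flanks, 35.99% of the window of Spem1 lay under peaks, the highest share among the 35 genes. Those flank peaks all overlapped other genes, namely Gm39566, Spem2 and Nlgn2, and their folds ran from 3.20 to 4.95. Odf2, an outer dense fibre gene that also serves centrosomes in other cells, had 7 peaks along its span of 42733 bp, with folds from 2.76 to 3.99. Its starts had up to 43 CG and lay at least 1996 bp from a peak.

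The other tail genes had fewer peaks. Odf1, which encodes a major protein of the outer dense fibres, had a single peak, inside the gene at fold 3.81. Akap3, of the fibrous sheath, had 2 peaks in its span at folds 3.17 and 3.31, both far from its start, with 11328 bp to the nearer. Odf4, another outer dense fibre gene, had no peak in its span and 1 of fold 3.41 in the flank, 7661 bp past its end. Smcp, whose product lies in the mitochondrial sheath of the midpiece, had no peak in the window, and the nearest peak was 100.2 kb away.

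The calcium channel genes belong to CatSper, the channel of the sperm tail needed for hyperactive swimming. All 5 members had a peak in their own span, where 61.6% of all protein-coding genes had one. That share is not matched for length, and these genes span from 8667 to 221365 bp. Of all protein-coding genes of 10 to 50 kb 72.7% had such a peak, and of those over 50 kb 90.1%. Among 8 further calcium channel genes, part of the longer list below, 5 had a peak in the span (62.5%). Catsper3, which encodes a pore-forming subunit, had the strongest, a peak of 1169 bp at chr13:55783578-55784746 with a fold of 7.77 and a −log10 q of 10.7. It covered the start of Catsper3 and reached into the neighbouring gene 4930451E10Rik, and only 247 bp of it lay in the annotated span of Catsper3. In the list as a whole, 98.5% of peaks had a fold as high or lower. The other 2 peaks in Catsper3 had folds of 3.86 and 3.95.

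At the other pore genes the strongest peaks lay off the gene. Catsper2 had 3 weak peaks inside, at folds from 3.16 to 3.43, and a peak of fold 6.48 outside genes, 3319 bp past its 3′ end. Catsper4 had 2 peaks inside at folds of 2.77 and 2.83, the weaker of which overlapped the gene by 11 bp, and 3 peaks in the upstream flank in Cnksr1 at folds from 3.78 to 4.22. Catsper1 had peaks at folds of 3.803 and 3.58 in its span, the weaker of them reaching into Cst6, and 4 flank peaks at folds from 2.75 to 3.89. Catsperb, an auxiliary subunit gene of 221365 bp, had 3 peaks in its span, at folds of 4.38, 4.82 and 3.97. Only 0.543% of the span of Catsperb was covered, against 12.1% for Catsper2, 6.73% for Catsper1, 4.43% for Catsper4 and 3.998% for Catsper3.

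The acrosome and fusion genes included the gene with the highest fold of the 35, Spata16, and 2 of the 12 had no peak. Spata16, a gene of acrosome formation whose loss in humans gives round-headed sperm, spans 345630 bp of chromosome 3 and had 9 peaks inside. The strongest peak, of fold 8.24 and −log10 q 11.5, lay at chr3:26921754-26923145. Others in Spata16 had folds of 6.70 and 6.37, and a peak of fold 6.34 lay 2162 bp past its 3′ end. The nearest peak inside Spata16 was 67221 bp from its start.

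Zpbp, of the acrosomal matrix, had a wide peak of 4593 bp and fold 6.84 among 4 peaks inside, the nearest of them 68693 bp from its start. The others inside Zpbp had folds of 4.37, 4.09 and 2.75. Dpy19l2, which anchors the acrosome to the nucleus, had 3 peaks inside at folds from 4.21 to 5.00, and a peak of fold 6.18 lay 684 bp past its 3′ end. These 3 genes are long, and of the 6 members over 50 kb they were the 3 with a strong peak in the window, against 27.2% of all protein-coding genes over 50 kb. Per length their cover was low, at 2.24% of the span of Spata16, 4.07% of Zpbp and 2.14% of Dpy19l2.

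None of the other genes of this group had a strong peak. Izumo1, whose protein on the sperm binds its receptor on the egg, had a peak of 2046 bp and fold 3.56 over 37.7% of its span, starting 839 bp from the gene start. Acr, the gene of the acrosomal protease acrosin, had 25.1% of its span under 2 peaks at folds of 3.59 and 3.98. Acrbp, whose product binds proacrosin, had 3 peaks inside at folds from 2.78 to 3.31 and a stronger one of 4.17 upstream, over Ing4. Spaca1, an acrosomal membrane protein gene, had a single peak at fold 4.29. The sperm surface protein genes Adam2 and Adam3 had folds of up to 3.59 and 4.49 inside, over 0.469% and 2.104% of their spans. Spaca3, which encodes a lysozyme-like acrosomal protein, had flank peaks only, at folds of 2.90 and 3.04.

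Acrv1, which encodes an acrosomal vesicle protein, and Zpbp2, the paralogue of Zpbp, had no peak in their windows. The nearest peak was 21.9 kb from Acrv1 and 10.6 kb from Zpbp2. Zpbp2 was thus just outside the limit of 10 kb, and the peak of fold 4.60 in the flank of Gapdhs, at 9881 bp, was just inside it.

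None of the 3 metabolism genes had a peak in its span, against 61.6% of all protein-coding genes with one. Pgk2 spans only 1592 bp, and 7.04% of protein-coding genes of up to 2 kb had such a peak. Gapdhs, the sperm form of glyceraldehyde-phosphate dehydrogenase, had 3 flank peaks at folds of 2.97, 3.05 and 4.60, all in the neighbouring genes Atp4a and Sbsn. Ldhc, the testis form of lactate dehydrogenase, had 1 flank peak at fold 3.19, which lay in the neighbouring Ldha. Pgk2, an intronless phosphoglycerate kinase gene on chromosome 17, had no peak in its window, and the nearest peak was 188.4 kb away, the largest distance of the 35 genes.

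The testis-specific serine kinase genes Tssk1 and Tssk2 lie next to each other on chromosome 16 and share 2 peaks. A peak of 230 bp and fold 3.46 lay in Tssk1, 69 bp past its start, and covered 15.9% of the gene. Tssk2 and Tssk6 had flank peaks only, in Tssk1 and Ess2 for Tssk2 and in Yjefn3, Ndufa13 and Gatad2a for Tssk6, with folds from 2.88 to 3.46. Crem, the activator of many of these genes, had no peak in its span of 71420 bp. Its flank held 2 peaks at folds of 3.89 and 4.64, both in the neighbouring Gm6225.

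**Figure D4:**
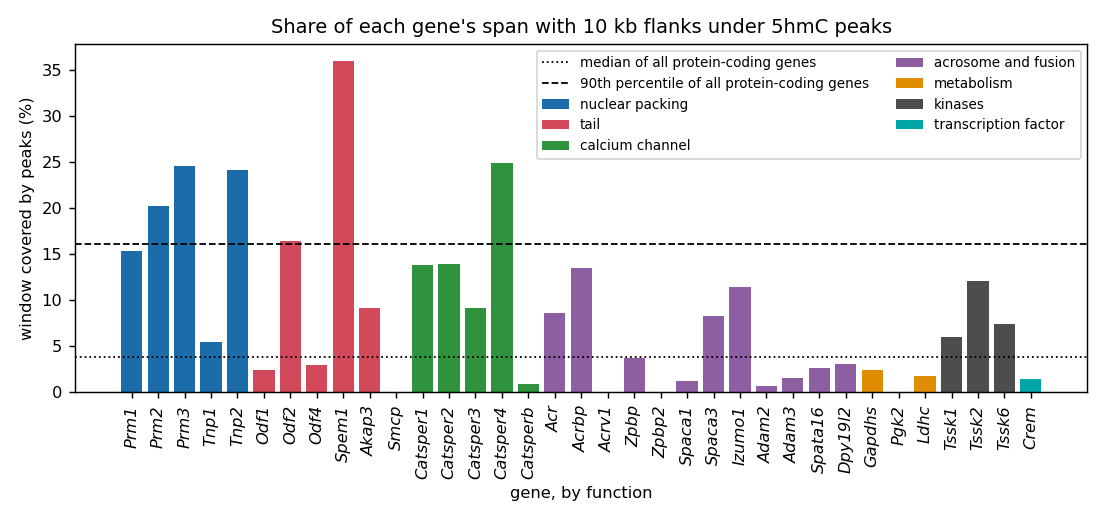
Percent of each window (gene span with 10 kb on each side) lying under peaks, for the 35 genes coloured by function. The dotted line is the median of all protein-coding genes, 3.82%, and the dashed line their 90th percentile, 16.05%. Spem1, Catsper4, Prm3, Tnp2, Prm2 and Odf2 stand above the dashed line, and Smcp, Acrv1, Zpbp2 and Pgk2 are at 0.

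Per window, the members had a median cover of 5.95%, against 3.82% for all protein-coding genes, and 19 of 35 lay above the median of all genes. The 4 genes of the protamine cluster, whose windows overlap, lay from 15.3% to 24.5%. With them left out, the middle member was Zpbp at 3.67%, below the median of all genes. Above the 90th percentile of all genes, 16.05%, were 6 members. These were Spem1, Catsper4, Prm3, Tnp2, Prm2 and Odf2, of which 3 share the peaks of the protamine cluster. By function, and over the union of the windows of each group, nuclear packing genes were covered to 12.4%, tail genes to 11.4% and kinases to 8.83%. The value was 6.47% for the calcium channel, 3.36% for acrosome and fusion genes and 1.60% for metabolism genes. Over the union of all protein-coding gene windows it was 4.69%. Long windows weigh most in a union, such as that of Catsperb, 0.890% of which was covered. By the median per window, nuclear packing genes stood at 20.3%, the calcium channel at 13.8%, kinases at 7.41% and the tail at 6.09%. Acrosome and fusion genes stood at 2.84% and metabolism genes at 1.73%. The groups are small, and the further sperm formation genes below kept neither order.

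The short members stood farthest from other genes of their size. Of the 10 members of up to 2 kb, 6 had a peak in the own span, against 7.04% of the 2557 protein-coding genes of that size. At least 50% of the span was covered in 5 of the 10, against 3.01% of these genes. The 5 were Prm1, Prm2, Prm3, Tnp2 and Spem1. The short members lie at 6 loci, 3 of which had such a peak, and with the protamine cluster left out 2 of 6 had a peak in the span and 1 of 6 was covered to at least 50%. Olfactory and vomeronasal receptor genes make up 1166 of the short genes, and without them the values for short genes were 11.5% with a peak in the span and 4.74% covered to at least 50%. With peaks of −log10 q of at least 3, Spem1 alone of the 10 short members was left with a peak in its span, against 1.29% of all short genes.

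In longer classes the members were close to other genes. A peak in the span was found in 3 of 8 members of 2 to 10 kb (37.5%, against 42.7% of all), in 9 of 11 of 10 to 50 kb (81.8%, against 72.7%) and in 5 of 6 over 50 kb (83.3%, against 90.1%). The length classes were set after the values had been seen.

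**Figure D5:**
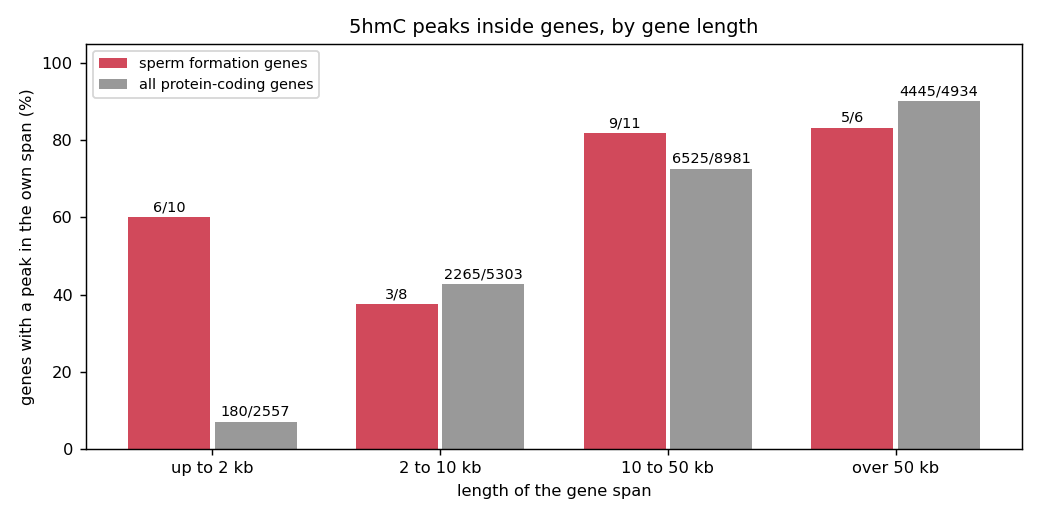
Percent of genes with a peak in the own span (vertical axis) by length of the span, for sperm formation genes (red) and all protein-coding genes (grey), with counts above the bars. In the class of up to 2 kb, 6 of 10 members and 180 of 2557 genes have a peak, and in the other classes both bars lie closer together.

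A further 62 sperm formation genes, listed by function from general knowledge, gave similar shares. A peak lay in the window of 50 of the 62 (80.6%) and in the span of 40 (64.5%), against 78.7% and 61.6% of all protein-coding genes. A strong peak lay in the window of 9 of the 62, against 13.7% of all. By function, windows with a peak numbered 6 of 6 for nuclear packing, 14 of 15 for the tail, 7 of 8 for the calcium channel, 11 of 15 for acrosome and fusion, 4 of 8 for metabolism, 3 of 3 for kinases and 5 of 7 for regulators. Over the union of the windows, cover was 15.9% for nuclear packing, 10.3% for kinases, 7.41% for acrosome and fusion and 5.59% for the calcium channel. It was 4.88% for regulators, 4.67% for metabolism and 2.99% for the tail. The tail group, highly covered among the members, was thus the lowest here by this measure. Its windows included that of Spag16, a gene of 898261 bp with 0.484% of its window covered. By the median per window the tail stood at 4.87%, above the calcium channel at 4.77%, regulators at 2.23% and metabolism at 0.657%. The highest folds were 9.14 at Cfap44, of the sperm axoneme, 8.63 at Catspere1, an auxiliary subunit gene of CatSper, and 7.92 at Dnah1, which encodes an axonemal dynein heavy chain. Starts under a peak were found at 4 of 54, against 3.67% of all genes, and these were Dcst1, Dcst2, Spaca4 and Tmem95, all acrosome and fusion genes, of which Dcst1 and Dcst2 overlap each other. Of the metabolism genes, Eno4 and Slc2a3 had a peak in the span, Cox6b2 and Cox8c in the flank alone, and Aldoart1, Gk2, Pdha2 and Cyct had none. Among 37 meiotic genes, 33 (89.2%) had a peak in the window and 26 (70.3%) in the span, against the same 78.7% and 61.6%, and none of 31 starts was covered. The highest folds of the meiotic genes were 8.43 at Terb1, 7.41 at Hfm1 and 7.35 at Mnd1.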

How the data were processed

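The authors' deposited file for the captured library is a broad peak list, 1 row per peak on build mm10. Per the submitters' processing notes, MACS2 2.1.0, bedtools 2.27.1, Bowtie2 2.5.0, deepTools 3.5.1, SAMtools 1.16.1 and Trim Galore were used. Settings, and whether the uncaptured library served as control, were not given in the sources used here. For every peak the deposited list holds a fold enrichment, a ratio to the caller's background, a −log10 p and −log10 q, and a display score that was not used. The lowest −log10 q was 1.01, so weak calls are included and peak counts follow the caller's threshold. No read counts are held, so the depth is unknown.

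Gene spans came from RefSeq GRCm38.p6, the build of mm10, on chromosomes 1 to 19, X and Y. Genes starting in the opening 3 Mb of a chromosome other than Y were left out. The table gives no exons. Overlaps, covered bases and promoter letters were computed in Python 3.11.15 with pandas 2.3.3, and the overlap code was checked on simulated intervals. All values are descriptions; exact Clopper-Pearson intervals cover counting error, and neighbouring genes are not independent. The members, lists and alternatives were chosen with earlier results of these data known. All members are accounted for. Peaks in the span or within 1 kb of it, and those of the 3 members of each function with the highest fold, are given. Their folds are printed singly, as a range or as the highest value. Of the further and meiotic lists, the 3 genes with the highest fold are named. Promoters are shown for members with a start under a peak and, as contrasts, for Prm1 and Tnp1.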

Additional observations from a re-analysis of the deposited data

How the results depend on the processing

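The peak threshold had the widest effect. At a −log10 q of at least 3, 14 members had a peak in the window (37.2% of all protein-coding genes) and 8 in the own span (22.6% of all), 28 distinct peaks were left and 1.68% of the windows was covered (0.927% for all). At a −log10 q of at least 5, 6 members had a peak in the window (16.3% of all) and 3 in the own span (8.83% of all), with 10 distinct peaks and a cover of 0.759% (0.442% for all). Those 10 peaks included a peak of 4593 bp in Zpbp and several in or next to Spata16. The cover at this threshold thus came largely from these long genes. Among members of up to 2 kb, a peak in the span was left in 1 at a −log10 q of at least 3 (1.29% of all short genes) and in 0 at 5 (0.469%), and a span covered to at least 50% in 1 (0.626%) and 0 (0.235%). A covered start was left at 1 member at either threshold (0.492% and 0.189% of all genes), so the shares over all genes fell as well. With the protamine cluster left out, 2 short members had a peak in the span, 1 was covered to at least 50% and 1 member had a covered start.

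The flank changed the cover of the windows, which was 3.78% with 1 kb (4.86% for all), 4.29% with 5 kb (4.72%) and 5.40% with 20 kb (4.67%); with 1 kb, 57 distinct peaks were left. Counts of members with a strong peak ran from 4 with 1 kb (7.61% of all genes) to 7 with 20 kb (20.2% of all). Merging peaks within 1 kb moved no count of members by over 1.5 times, nor did peak midpoints for peaks in the window, in the span or strong. Counted as loci, 27 of 31 had a peak in the window; the 6 short members with a peak in the span lay at 3 loci and the 4 covered starts at 2 loci. Against autosomal genes alone the shares were 81.8% for the window, 64.3% for the span and 14.3% for strong peaks. The autosomal background and all settings for short genes and covered starts were chosen after the data had been seen.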
